A study of Bos taurus with 24 samples.

Results

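The miR-99/100 and miR-125 families were followed in bovine plasma as 5 mature miRNAs, namely bta-miR-99a-5p, bta-miR-99b, bta-miR-100, bta-miR-125a and bta-miR-125b (the prefix bta, for Bos taurus, is left off below). They were taken by name from the 870 rows of the miRNA tables. All 5 were among the 181 miRNAs tested, namely those above 25 RPMM (read counts scaled to the mapped reads of the library) in 6 or more of the 8 libraries on every day. The other arm of the miR-99a hairpin, miR-99a-3p, lay between 7.2 and 22.7 RPMM and was not tested.

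Plasma came from 8 non-pregnant Holstein-Friesian heifers, each bled 3 times in an oestrous cycle (Days 0, 8 and 16), which gave 24 small-RNA libraries. Day 0 was the first day on which oestrus was seen, Day 8 falls in the luteal phase and Day 16 in the late luteal phase. Every animal had been synchronised with a progesterone insert, buserelin (a GnRH agonist) and cloprostenol (a prostaglandin analogue), so the 3 days share that treatment, and there was no unsynchronised group. The EDTA plasma was spun a second time at high speed to remove platelets and debris, and RNA from plasma carries no mark of the tissue that released it, so more release by a tissue and slower clearance cannot be told apart.

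Mature miRNAs guide Argonaute proteins to messenger RNAs, mainly through bases 2 to 8, the seed. The miR-99/100 family is one of the most widely conserved in animals and in human cells represses MTOR and other genes of growth signalling, while miR-125 is the vertebrate relative of the nematode lin-4 and in mammals represses LIN28A and several apoptosis genes. The families are encoded together, with a let-7 gene between or beside them, and are abundant in fibroblasts and other mesenchymal cells and scarce in red blood cells.

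The sequences below are the canonical forms listed by the authors, written as DNA from 5′ to 3′ with the seed in capitals, and are shown because they decide which members can share targets and which can share reads. The pair of miR-10 relatives, which are compared with the members later, is included.
miR-99a-5p: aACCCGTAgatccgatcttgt
miR-99b: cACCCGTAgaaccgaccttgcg
miR-100: aACCCGTAgatccgaacttgtg
miR-125a: tCCCTGAGaccctttaacctgtg
miR-125b: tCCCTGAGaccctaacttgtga
miR-10a: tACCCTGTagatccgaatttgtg
miR-10b: tACCCTGTagaaccgaatttgtg

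Among 134 canonical sequences compared, the seed of miR-99a-5p, miR-99b and miR-100 was held by those 3 alone, and that of miR-125a and miR-125b by those 2 alone. Counted from the 5′ end, miR-100 and miR-99a-5p differed at 1 of 21 shared positions (A16T, with the miR-100 base first), outside the seed. The authors allowed 1 mismatch when mapping, so a read of either could be placed on the other, and the split between these 2 is uncertain. From miR-100 to miR-99b there were 4 differences over 22 positions (A1C, T11A, A16C and T21C). When miR-125a and miR-125b were laid side by side without gaps, 7 of 22 positions differed, so among the members only the miR-100 and miR-99a-5p pair lay within the allowance. The miR-10 relatives came near the miR-99/100 family once shifted by 1 base, with 3 mismatches over 22 positions between miR-10a and miR-100.

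In the coordinates of the deposited table, whose genome build it does not name, the members lay in 3 groups. The first group, on the minus strand of chromosome 1, held miR-99a-5p at chr1:20137011-20137031, let-7c 700 bases away and miR-125b at chr1:20087164-20087185. On chromosome 18, plus strand, miR-99b (chr18:57588003-57588024), let-7e and miR-125a (chr18:57588678-57588700) fell within a stretch in which only 653 bases separated miR-99b from miR-125a. On chromosome 15, minus strand, miR-100 was listed at chr15:31460993-31461014, with let-7a-5p 5799 bases away. RefSeq lists 2 loci for the miR-125b hairpin, on chromosomes 1 and 15, so its reads come from either copy or both, although the table gives 1 position.

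Totals of miRNA counts lay between 1299679 and 4700764 per library, with medians of 2761491 on Day 0, 3390108 on Day 8 and 2945688 on Day 16. Each member had at least 297 and at most 4353 counts in a library, so counting error was small beside the differences between animals. On none of the 3 days did the highest or lowest heifer exceed Dixon's limit for 8 samples on any member. That limit can miss animals that are extreme together, such as heifers 16 and 18 for miR-125a on Day 0 (975 and 890 RPMM). The red-cell measure log2(miR-451 / miR-23a), used for lysis of red cells during sampling, averaged 1.82 ± 1.05 (Day 0), 2.17 ± 0.78 (Day 8) and 2.77 ± 0.67 (Day 16), with SD over 8 heifers. Day 16 exceeded Day 0 in 7 of 8 heifers (two-sided exact permutation p = 0.0156, over 256 sign changes). No listed marker of red cells, platelets, leukocytes, liver and gut, or mesenchymal cells was at 0 in all libraries of a day. Of the red-cell list 9 of 10 passed the limit for testing, and of the liver and gut list 3 of 4.

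The members were of middling abundance. Together they made up 0.355 ± 0.156% of all miRNA counts in the Day 0 libraries, 0.266 ± 0.040% in those of Day 8 and 0.234 ± 0.052% in those of Day 16 (SD, n = 8). Their mean levels ranked between 75 and 110 among the 181 miRNAs. By comparison, the miR-10 relatives had medians of 4972 RPMM for miR-10a and 22343 RPMM for miR-10b over the 24 libraries. In read counts the order miR-99b, miR-125a, miR-100, miR-99a-5p and miR-125b held in 14 of 24 libraries. By single members, miR-100 was the third of the 5 in 24 of 24 libraries, miR-99b exceeded miR-125a in 20 of 24, and miR-99a-5p exceeded miR-125b in 15 of 24.

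miR-99b, the most abundant member, had its lowest, median and highest level at 539.9, 783 and 1093 RPMM on Day 0, at 482, 665 and 913 RPMM on Day 8, and at 448, 536 and 731 RPMM on Day 16. Heifer 20 was lowest on Days 0 and 16, and heifer 18 was highest on Day 0 and lowest on Day 8. The ranges of the 3 days overlapped. Of all members, miR-99b had the smallest share of its log2 RPMM variance between heifers, 18.5% against a median of 47.6% over the tested miRNAs, and the largest share between days, 29.7% against a median of 8.36%.

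miR-125a, its neighbour on chromosome 18, represses ERBB2 and the NF-κB inhibitor TNFAIP3 in human cells. Its lowest, median and highest levels were 368, 522 and 975 RPMM (Day 0), 338, 442 and 605 RPMM (Day 8), and 247, 459 and 603 RPMM (Day 16). The highest Day 0 library was that of heifer 16, and heifer 20 gave the lowest library on Days 0 and 16. In contrast to miR-99b, miR-125a had 55.1% of its variance between heifers and 12.3% between days.

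For miR-100, a repressor of MTOR in human cells, the lowest, median and highest levels were 206, 369 and 625 RPMM (Day 0), 250.0, 288 and 414 RPMM (Day 8), and 155, 285 and 384 RPMM (Day 16). Heifer 35 was highest on Days 0 and 16, and the lowest value came from heifer 22 on Day 16. The near-identical miR-99a-5p, which represses MTOR and IGF1R in human cells, ran from 147 over 254 to 435 RPMM on Day 0, from 143 over 197 to 301 RPMM on Day 8, and from 112 over 194 to 284 RPMM on Day 16 (lowest, median and highest). Both were spread over the same range of heifers, with heifer 20 lowest over its 3 days, and their days overlapped.

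miR-125b, the least abundant member by its median over the 24 libraries, was at 123, 214 and 500.4 RPMM (lowest, median, highest) on Day 0, at 178, 211 and 259 RPMM on Day 8, and at 92.8, 142 and 259.7 RPMM on Day 16. The heifers were close together on Day 8, with coefficients of variation of 48.3% (Day 0), 12.9% (Day 8) and 37.1% (Day 16). Over all tested miRNAs the medians of that coefficient were 33.8%, 27.9% and 24.9% for the same days. All 5 members had their widest spread between heifers on Day 0, 23.2 to 48.3%, and miR-99b had the narrowest there.

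**Figure D1:**
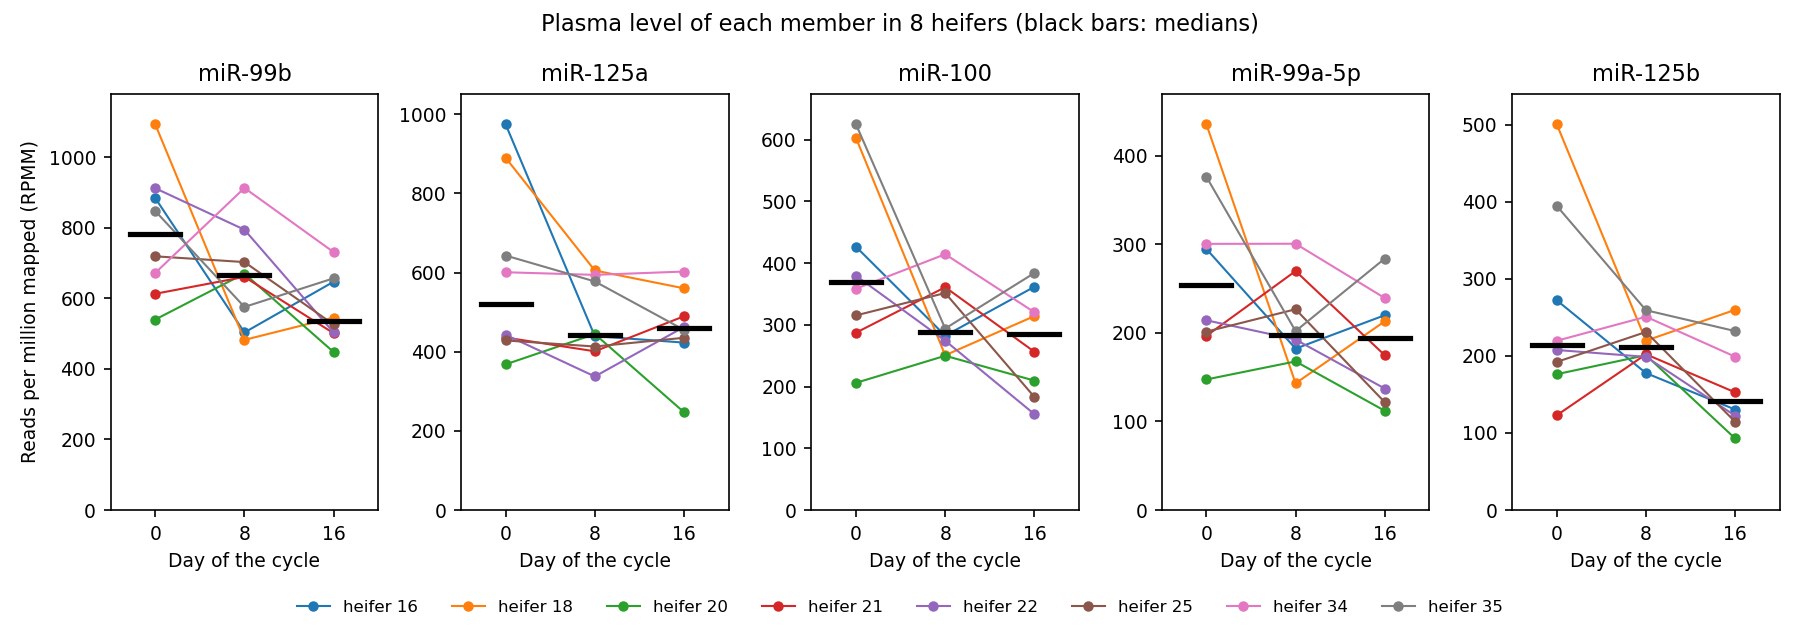
Level of each member in RPMM (y axis from 0, a scale of its own in each panel) on Days 0, 8 and 16 (x axis), with one coloured line per heifer (n = 8) and black bars at the medians. The Day 0 points reach higher than those of the later days in every panel, for example 1093 RPMM for miR-99b and 500.4 RPMM for miR-125b, and the days overlap.

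Differences between days were estimated from the read counts with edgeR's quasi-likelihood test, with heifer as a block, after scaling libraries by the trimmed mean of M-values (TMM), and p-values were adjusted by Benjamini-Hochberg over the 181 miRNAs. A log2 fold change below 0 means lower on the later day, and the adjusted threshold was 0.1. No member passed it in edgeR for any comparison of days, and none did by DESeq2. For the mean of the later days against Day 0, edgeR called 2.76% of the 181 miRNAs lower and DESeq2 7.73%. With limma-voom and sample weights, 2 members passed for Day 16 against Day 0 (miR-125b and miR-100) and 1 for the mean of the later days against Day 0 (miR-100), where that fit called 8.29% and 12.2% of the 181 miRNAs lower. The members are therefore described by unadjusted p in what follows. The contrasts share their Day 0 or later libraries and are not independent of one another.

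For Day 16 against Day 0, the end of the luteal phase against oestrus, all 5 members had log2 fold changes below 0, as had 49.7% of the tested miRNAs, with 50.3% above 0. Of the 5, 4 had an unadjusted edgeR p under 0.05, against 8.84% of the tested miRNAs called lower by that rule and 5.52% called higher. The largest difference was that of miR-125b at -0.51 ± 0.20 (SE; edgeR unadjusted p = 0.0219), followed by miR-100 at -0.42 ± 0.18 (unadjusted p = 0.0309), miR-99a-5p at -0.40 ± 0.19 (unadjusted p = 0.0427) and miR-99b at -0.33 ± 0.15 (unadjusted p = 0.0451). Each of these 4 had an edgeR adjusted p of 0.340. For miR-125a the value was -0.18 ± 0.19 (adjusted p = 0.672). The median of the 5 was -0.40, against 0.0029 over all 181.

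The same contrast within animals showed which heifers carried it. On TMM-scaled CPM, counts relative to the scaled library total, every member had less on Day 16 than on Day 0 in heifers 16, 18, 20 and 35, and 4 of 5 members were lower in heifers 22, 25 and 34. In heifer 21 all 5 were higher on Day 16, by 0.39 to 0.99 on the log2 scale. The miR-125 members were spread most widely, miR-125a from -1.37 in heifer 16 to 0.85 in heifer 21 and miR-125b from -1.22 to 0.99 in the same animals, with miR-125b lower in 7 of 8 heifers. The exceptions in heifers 22 and 25 were miR-125a in both, at 0.30 and 0.26. These tallies depended on the scale. On RPMM heifer 21 had 3 of 5 members lower on Day 16 and 2 higher (-0.29 to 0.31), heifer 34 had 3 of 5 lower, and all 5 were lower in heifers 16, 18 and 35 only.

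The count of 4 depended on single animals. Without heifer 16 no member had an unadjusted p under 0.05, and without heifer 18, 20 or 22 only 1 had. Of the 181 miRNAs, 8.84% were called lower without heifer 16, and 3.87%, 4.42% and 6.63% without heifers 18, 20 and 22. Without heifer 21 again 4 members had such a p, and miR-125b then passed the adjusted threshold (-0.72, edgeR adjusted p = 0.0791). In that fit 12.7% of the 181 were called lower at the unadjusted level and 1.66% at the adjusted threshold.

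On Day 8 against Day 0 the members again all lay below 0, against 42.5% of the tested miRNAs below 0 and 57.5% above it. None had an unadjusted edgeR p under 0.05, against 11% called lower among the 181 and 3.31% called higher. DESeq2 and limma on log2(RPMM + 1) also gave 0, and they called 12.2% and 6.63% of the 181 lower. The values were -0.34 for miR-100 and miR-99a-5p, -0.32 for miR-125a, -0.28 for miR-99b and -0.19 for miR-125b, with edgeR unadjusted p from 0.0758 to 0.353 and adjusted p from 0.361 to 0.645. By animal the picture was split. All 5 members were lower on Day 8 in heifers 16, 18, 22 and 35, all 5 were higher in heifers 20 and 21, and heifers 25 and 34 had members on either side. The largest single differences came from heifer 18, down to -1.58 for miR-99a-5p, and heifer 35, down to -1.32 for miR-100. Leaving out heifer 21 gave 3 members with an unadjusted p under 0.05 and 2 past the adjusted threshold (miR-100 and miR-99a-5p, adjusted p = 0.0881 and 0.0909). In the same fit 17.1% of the 181 miRNAs were called lower at the unadjusted level and 13.3% at the adjusted threshold. There were also 3 at the unadjusted level without heifer 20, and 1 without heifer 25 or 34. The shares of the 181 called lower in those fits were 12.7%, 8.84% and 12.2%, in the same order.

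Between the luteal days, Day 16 against Day 8, the members had values from -0.32 ± 0.20 for miR-125b (edgeR unadjusted p = 0.137) to 0.14 ± 0.19 for miR-125a (unadjusted p = 0.456). The remaining 3 lay between -0.080 and -0.050, so 4 of 5 were below 0, against 49.7% of the tested miRNAs below and 50.3% above. No member had an unadjusted p under 0.05, against 1.1% of miRNAs called lower and 2.76% called higher. With limma on log2(RPMM + 1) it was 1, against 4.42% called lower. Scaling by total counts put miR-125a at -0.058, so that its direction depended on the scaling. That scaling moved the median of all 181 miRNAs by -0.17 for this contrast and by -0.19 for Day 16 against Day 0.

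When both later days were averaged and set against oestrus, all 5 members were again below 0 (46.4% of the tested miRNAs were, and 53.6% above), and 3 had an unadjusted p under 0.05, against 14.4% called lower and 2.76% called higher. These were miR-100 at -0.38 ± 0.16 (edgeR unadjusted p = 0.0235, adjusted p = 0.224), miR-99a-5p at -0.37 ± 0.16 (unadjusted p = 0.0311, adjusted p = 0.251) and miR-99b at -0.30 ± 0.13 (unadjusted p = 0.0324, adjusted p = 0.251). miR-125b (-0.35 ± 0.17, adjusted p = 0.275) and miR-125a (-0.25 ± 0.16, adjusted p = 0.422) did not reach that level. The miR-99/100 members thus had the 3 lowest p-values, while the median over the 5 was -0.35, against 0.028 over all 181. In the test for any effect of day, which uses all 3 days at once, no member had an unadjusted edgeR p under 0.05 (0.0663 to 0.250), against 12.7% of the miRNAs. The same count was 2 by DESeq2, which called 16.6% of the 181, and 4 by limma on log2(RPMM + 1), which called 11% of them.

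Single animals moved this contrast as well. All 5 members were higher on the later days in heifer 21 (0.32 to 0.92), all 5 were lower in heifers 16, 18, 20, 22 and 35, and 4 of 5 were lower in heifers 25 and 34, on TMM-scaled CPM. On RPMM heifer 21 had 4 of 5 higher, and heifers 20 and 34 had members on either side (3 and 2 of 5 lower). Without heifer 21 all 5 had an unadjusted p under 0.05 and 4 passed the adjusted threshold, with log2 fold changes of -0.53 for miR-125b, -0.52 for miR-100 and miR-99a-5p, and -0.42 for miR-99b (edgeR adjusted p = 0.0319, 0.0319, 0.0423 and 0.0592). In that fit 12.2% of the 181 miRNAs were called lower at the adjusted threshold. Other animals moved the count downwards. No member reached an unadjusted p of 0.05 without heifer 18 or without heifer 35, 1 did without heifer 16 and 2 without heifer 22. The shares of the 181 called lower at that level were 8.84%, 11%, 12.2% and 11% in those fits, in the same order. Heifer 21 is not set aside here, because the labels give no reason to doubt it.

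**Figure D2:**
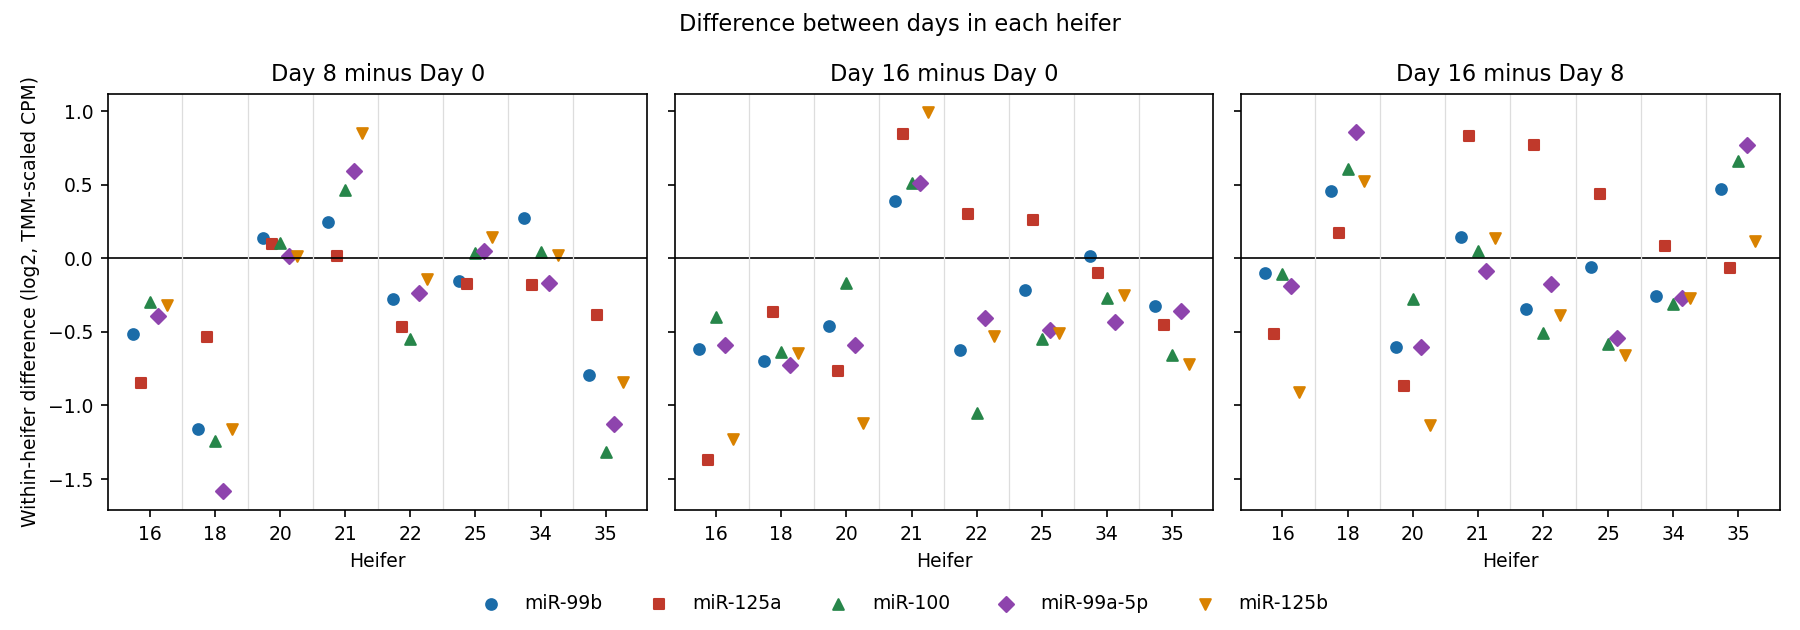
Within-heifer differences between days for each member (log2 of TMM-scaled CPM, later day minus earlier day, y axis) by heifer (x axis), one symbol per member and one panel per pair of days. In the panel for Day 16 minus Day 0, heifer 21 has all 5 members above 0, between 0.39 and 0.99, and heifers 16, 18, 20 and 35 have all 5 below 0.

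Red-cell measures were set beside the members. On Day 16 against Day 0 the lysis measure was higher by 0.94 ± 0.73 (SD over 8 heifers). Its denominator miR-23a was itself at -0.26 ± 0.11 (SE; edgeR unadjusted p = 0.0236, adjusted p = 0.340). The erythrocyte list had 9 of 9 tested miRNAs above 0, as had 50.3% of the 181, with a median of 0.37 against 0.0029. In that list 2 (miR-144 and miR-451) had an unadjusted edgeR p under 0.05, against 5.52% of the 181 called higher. None of the 9 passed the adjusted threshold. As a percentage of miRNA counts, miR-486 was higher in 6 of 8 heifers, by 8.1 ± 13.7 (SD, exact permutation p = 0.141). In the edgeR test for any effect of day, miR-451 and miR-486 had adjusted p of 0.430 and 0.468. Heifer 21 had a lysis difference of 1.59, close to those of heifers 16 and 18 (1.55 and 1.59), in which all 5 members were lower. On TMM-scaled CPM heifer 20, whose lysis measure differed by -0.56, also had all 5 members lower. On RPMM heifer 20 had 4 of 5 lower and heifer 21 had 3 of 5 lower. With the level of miR-451 as a covariate, the members' values for Day 16 against Day 0 lay between -0.62 for miR-125b and -0.18 for miR-125a, with 1 of 5 (miR-125b) at an unadjusted edgeR p under 0.05, against 4.97% of the 181 called lower in that fit. For the mean of Days 8 and 16 against Day 0 it was 3 of 5 (miR-100, miR-99a-5p and miR-125b), against 12.2% called lower, with values between -0.41 and -0.25. The part of red-cell lysis in the members' values was not tested.

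Ratios between members within a library do not depend on scaling between libraries, and 30 were tested, 10 pairs for each of 3 pairs of days. miR-100 and miR-99a-5p held the steadiest ratio, 1.13 to 1.87 in the 24 libraries with a mean of 1.48 ± 0.17 (SD). Its mean within-heifer difference was 0.012, -0.016 and -0.028 (log2) for Day 8 against Day 0, Day 16 against Day 0 and Day 16 against Day 8, and the smallest two-sided exact permutation p was 0.719. These 2 differ at a single base, within the mapping allowance, and the part of shared reads in the steadiness was not tested.

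Only 1 of the 30 ratios had an exact permutation p under 0.05. This was miR-125b over miR-99a-5p, listed 49825 bases apart on chromosome 1, although RefSeq has another miR-125b copy on chromosome 15. The ratio had a median of 1.03 on Day 8 against 0.96 on Day 0. It was higher on Day 8 in 8 of 8 heifers, by 0.18 ± 0.14 (log2, SD), with an exact permutation p of 0.0078, the smallest that 8 animals allow. The adjusted p over the 30 ratios was 0.234, so it did not pass the correction. For Day 16 against Day 8 the same ratio was lower in 7 of 8 heifers, by -0.29 ± 0.33 (exact p = 0.0547).

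The miR-125 pair, which share a seed but not a chromosome, had ratios of miR-125a to miR-125b with medians of 2.18 on Day 0, 2.22 on Day 8 and 3.12 on Day 16. The Day 16 ratio was above that of Day 0 in 6 of 8 heifers, by 0.29 ± 0.36 (exact permutation p = 0.0547), and above that of Day 8 in 6 of 8, by 0.43 ± 0.54 (exact p = 0.0625). The adjusted p was 0.422 for both, and the ranges of the days overlapped. The ratio of miR-99b to miR-125a, neighbours on chromosome 18, had medians of 1.36, 1.52 and 1.21 on Days 0, 8 and 16 and exact p of at least 0.523.

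**Figure D3:**
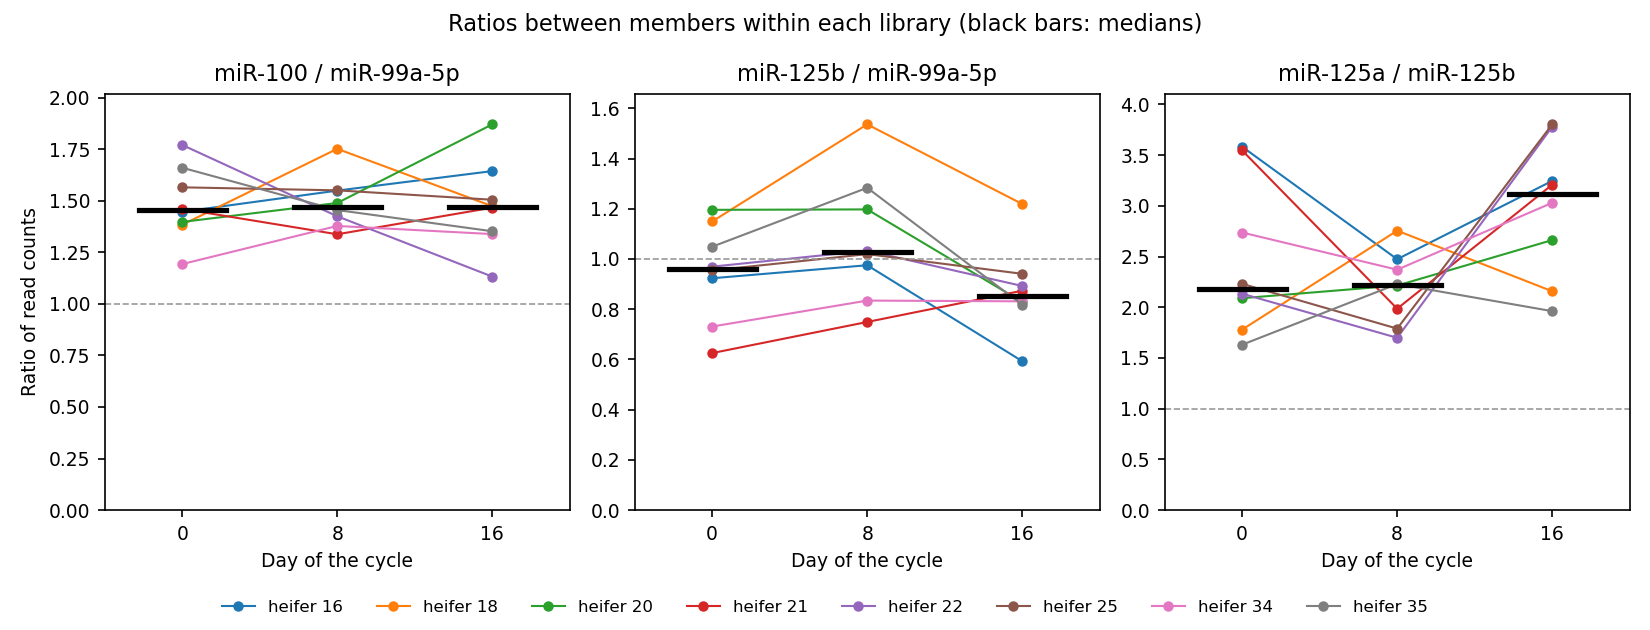
Ratios of read counts between members in each library (y axis from 0, no unit) on Days 0, 8 and 16 (x axis), one coloured line per heifer (n = 8), black bars at the medians and a dashed line at a ratio of 1. All miR-100 to miR-99a-5p ratios lie between 1.13 and 1.87, and the miR-125a to miR-125b ratio has its highest median, 3.12, on Day 16.

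Over the 8 heifers' mean log2 RPMM, the members other than miR-99b kept much the same order of animals. miR-100 and miR-99a-5p had r = 0.97 (exact permutation p = 1.5e-04, adjusted over 10 pairs 0.00149) and rho = 0.95 (exact p = 0.00114), and r = 0.92 without the 2 heifers farthest from the median. miR-125a followed miR-100 with r = 0.91 (exact p = 0.00312, adjusted 0.0148) and rho = 0.83 (exact p = 0.0154), and r was 0.91 without the 2 farthest heifers. Heifer 20 was lowest of the 8 for all 5 members on RPMM, from 142 RPMM for miR-99a-5p to 553 RPMM for miR-99b as its mean over the 3 days, and for none of them on TMM-scaled CPM.

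The highest heifer means were 1.94 to 2.08 times the lowest for 4 members and 1.40 times for miR-99b. The 4 pairs with miR-99b had r from 0.52 to 0.68 on RPMM, with exact permutation p of at least 0.0637. Without the 2 farthest heifers these lay between 0.039 and 0.361, so they rested on heifers 20 and 34. On TMM-scaled CPM the same pairs had r from 0.70 to 0.92, and their strength therefore depended on the scaling.

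Within heifers another grouping appeared. After each heifer's mean was taken away, r over the 24 libraries on log2 RPMM was 0.93 for miR-100 and miR-99a-5p, 0.92 for miR-99b and miR-100, and 0.91 for miR-99b and miR-99a-5p. miR-125b and miR-99a-5p, both listed on chromosome 1, had 0.86, although miR-125b reads can also come from its copy on chromosome 15. miR-125a had lower values, from 0.32 with miR-100 to 0.61 with miR-125b, and 0.53 with its close neighbour miR-99b. These libraries share animals and a common scale, and the values are given as a description.

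Outside the families, the 2 tested miRNAs most like each of the 5 members were listed, by the same measure on TMM-scaled CPM. miR-27a-3p (0.68) and miR-29a (0.67) were closest to miR-99a-5p, and miR-199a-5p (0.72) and miR-29a (0.71) to miR-99b. For miR-100 they were miR-27a-3p (0.79) and miR-2285t (0.75). miR-328 and miR-224 were closest to both miR-125 members, at 0.84 and 0.77 for miR-125a and at 0.56 and 0.59 for miR-125b. The median over 176 other miRNAs was between -0.085 and -0.024. None of the listed partners was shared by a miR-99/100 and a miR-125 member. Only 2 places per member were listed, so partners shared at lower ranks cannot be seen.

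The let-7 genes beside the members, whose miRNAs promote differentiation and repress LIN28, did not share their pattern. For the mean of Days 8 and 16 against Day 0, let-7c had 0.10 ± 0.22 (SE; edgeR adjusted p = 0.788) and let-7a-5p 0.014 ± 0.209 (adjusted p = 0.976), against -0.37 for miR-99a-5p and -0.38 for miR-100. Within heifers, miR-99a-5p and let-7c had r = -0.51, and miR-100 and let-7a-5p had r = -0.71, over 24 libraries. The count of miR-99a-5p was between 0.24 and 4.04 times that of let-7c. RefSeq lists 3 loci of let-7a, and the let-7 sequences resemble one another, so these reads need not come from the copies beside the members.

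The miR-10 relatives, known for their place within the HOX gene clusters, differed from each other. miR-10b was at -0.45 ± 0.14 for Day 8 against Day 0 (SE; edgeR unadjusted p = 0.00473, adjusted p = 0.114) and at -0.096 ± 0.142 for Day 16 against Day 0. miR-10a was at 0.082 ± 0.110 and 0.14 ± 0.11 for those contrasts. Both differ from the miR-99/100 seed, and neither passed the adjusted threshold.

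**Figure D4:**
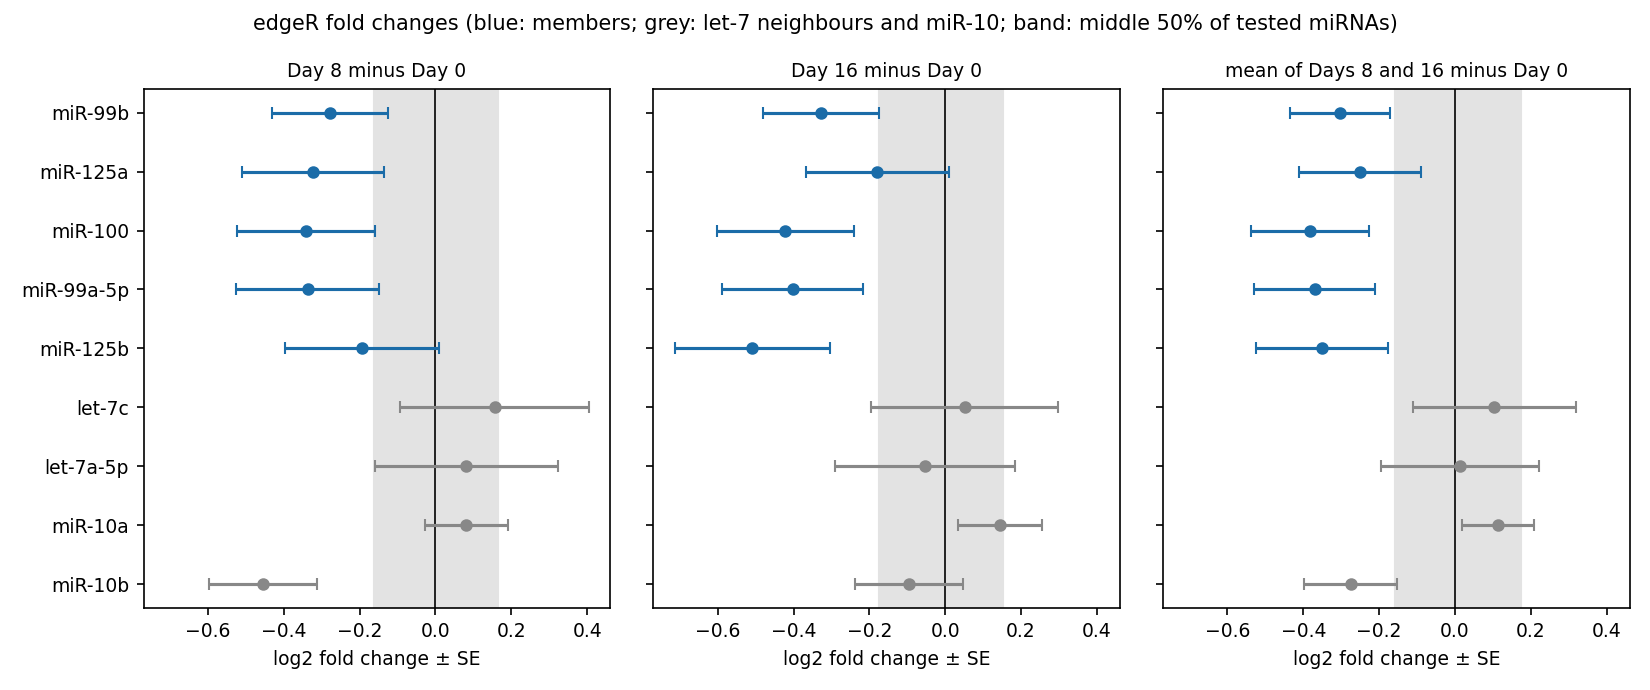
edgeR log2 fold changes with SE bars (x axis) of the 5 members (blue), let-7c and let-7a-5p, and miR-10a and miR-10b (grey), for Day 8 minus Day 0, Day 16 minus Day 0 and their mean. All 15 member values lie left of 0, and the grey band holds the middle 50% of the 181 tested miRNAs (-0.17 to 0.15 for Day 16 minus Day 0).

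Among miRNAs of mesenchymal cells, a list of 9 without the members, all 9 were below 0 for the mean of Days 8 and 16 against Day 0. Their median was -0.39, against 0.028 over all 181 miRNAs, of which 46.4% were below 0. In the list 5 had an unadjusted edgeR p under 0.05, against 14.4% of the 181 called lower. The adjusted threshold was passed by 2, against 2.76% of the 181 called lower. These were miR-199a-5p (-0.70 ± 0.18, edgeR adjusted p = 0.0493) and miR-214 (-0.39 ± 0.11, adjusted p = 0.0746), which are encoded together on one long RNA. The smallest difference in the list was that of miR-199a-3p (-0.047 ± 0.191, adjusted p = 0.865). Some of the 9 had been singled out by the study on these same libraries. The summed level of the 9 lay between 28788 and 55657 RPMM on Day 0, between 22740 and 47872 RPMM on Day 8, and between 27412 and 45928 RPMM on Day 16. miR-10b belongs to this list and made up much of the sum, with 18177 to 34349 RPMM on Day 0. By animal, the median of the list for Day 16 against Day 0 was above 0 only in heifer 21, where 1 of the 9 was below 0. For Day 8 against Day 0 the medians of the list and of the members had opposite signs in heifers 20, 25 and 34. The list medians were -0.28, -0.76 and -0.31, and the member medians 0.10, 0.036 and 0.024. In heifers 25 and 34 the members lay on either side of 0, with 2 of 5 below it. For Day 16 against Day 8 the list had 8 of 9 above 0 (median 0.13). The members had 4 of 5 below 0 (median -0.065), and of the 181 miRNAs 50.3% were above 0 and 49.7% below. The part of a shift in the sources of plasma RNA in the members' values was not tested.

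For the mean of Days 8 and 16 against Day 0, the platelet, leukocyte, and liver and gut lists had no miRNA past the adjusted threshold. Of the 181 miRNAs, 2.76% were called lower there and 0 higher. The medians of these lists were 0.071, 0.16 and -0.042. Their summed levels overlapped between days, with platelet miRNAs between 32841 and 46883 RPMM on Day 16 against 21078 to 72580 RPMM on Day 0.

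The arms of the miR-99a hairpin could be set side by side only in low counts, since miR-99a-3p had 26 to 97 reads in a library. The 5p arm outnumbered it 7.63 to 32.5 times, with medians of 16.4 on Day 0, 16.8 on Day 8 and 17.9 on Day 16, and the ranges of the days overlapped.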

How the data were processed

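Small-RNA libraries (Illumina TruSeq kit, single-end reads) were made from total plasma RNA of 8 heifers on 3 days. The authors mapped reads with sRNAbench, which calls Bowtie (0.12.9 in the submitters' processing notes), to bovine and human miRBase 20 mature miRNAs allowing 1 mismatch, and deposited a table of raw read counts per miRNA (870 rows) and a table of the same counts scaled to each library's mapped reads (RPM, written RPMM). Mapped reads implied by the 2 tables were 2278035 to 6194402 per library. Reads carried no molecular identifiers, so a count error covers counting only. PCR array and RT-qPCR values were not used here.

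Columns were matched to heifer and day through the sample titles, with 0 columns left over and 0 identical libraries. Counts were fitted in edgeR 4.0.16 (R 4.3.3; TMM scaling, quasi-likelihood F test, day plus heifer, all 24 libraries), with Benjamini-Hochberg adjustment over the 181 miRNAs above 25 RPMM in at least 6 of 8 libraries of each day, which hold 99.8% of counts. The adjusted threshold was 0.1. TMM-scaled CPM were logged with edgeR's prior count of 1 for displays of likeness. Ratios and the lysis measure were tested by two-sided exact permutation of signs over 256 sign changes, and correlations over all 40320 pairings (scipy 1.17.1). The same animal gave its 3 libraries, and deviations from day means correlated with a median r of 0.338 between libraries of 1 heifer and -0.0447 between heifers, so heifer was kept as a block.

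The members, lists and rules were chosen with earlier results of these data known. The study had singled out 3 of the 5 members (miR-99b, miR-100 and miR-125b) and 4 of the 9 mesenchymal markers on these same libraries. By RT-qPCR on plasma of the same heifers it also reported higher miR-99a-5p, a member, and miR-145, a mesenchymal marker, at oestrus. For miR-125b its RT-qPCR gave no overall effect of day and only a tendency to be higher at oestrus. Levels of miR-99b were too low for its RT-qPCR. None of its sequencing calls passed its own adjusted threshold. Because both lists overlap with these earlier results, neither is independent evidence. Named miRNAs are the members, their other arm, the neighbouring let-7 miRNAs, miR-10a and miR-10b, the lysis measures and, for likeness, the 2 tested miRNAs with the highest within-heifer correlation to each member. miR-199a-5p and miR-214 were named after their values were seen. Alternatives were DESeq2 1.42.0, limma 3.58.1 on log2 RPMM with a pseudocount of 1 or 0.1, voom with weights for samples, a repeated-measures test, other scalings and filters, near-identical members summed, miR-451 as a covariate, no block, and each heifer left out.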

Additional observations from a re-analysis of the deposited data

How the results depend on the processing

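Over the 22 settings, the members kept log2 fold changes below 0 for Day 8, Day 16 and their mean against Day 0 (318 of 318 values). Counts of members at unadjusted p under 0.05 moved. For the effect of day, 0 became 2 with DESeq2, limma-voom or no filter, against 16.6%, 25.4% and 6.74% of all miRNAs in those fits. It was 3 with the repeated-measures test (9.94% of all) or with total counts without miR-486 (12.7%). It was 4 with limma on either pseudocount (11%) or total counts (13.3%), and the main edgeR fit called 12.7%. For Day 8 against Day 0 it was 1 with total counts without miR-486, where 12.2% of all miRNAs were called lower, against 11% in the main fit. For Day 16 against Day 0, 4 became 5 with the repeated-measures test, 1 with miR-451 as a covariate and 1 with no replicate block. These fits called 12.7%, 4.97% and 4.97% of all miRNAs lower, against 8.84% in the main fit. Dropping the pairing by heifer thus lost 3 members and also lowered the share over all miRNAs. For Day 16 against Day 8, 0 became 1 with limma on either pseudocount, the repeated-measures test, limma-voom or total counts. These called 4.42%, 2.76%, 3.31% and 4.97% of all miRNAs lower, against 1.1% in the main fit. For the mean of the later days against Day 0, 3 became 5 with limma on either pseudocount, the repeated-measures test or total counts. These called 14.9%, 13.8% and 17.1% of all miRNAs lower, against 14.4% in the main fit. The count was 4 with DESeq2 (14.9% of all), limma-voom (18.8%), either other filter (14.7% and 6.6%) or total counts without miR-486 (15.5%). At the adjusted threshold, limma-voom gave 2 for Day 16 against Day 0 and 1 for the mean. It called 8.29% and 12.2% of all miRNAs lower there.

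Leaving out each heifer in turn, the members' unadjusted counts ran from 0 to 4 for the effect of day (4 without heifer 21). Against Day 0 they ran from 0 to 3 for Day 8, 0 to 4 for Day 16 and 0 to 5 for the mean. Over all miRNAs the share called ran from 4.42 to 21.5% for the effect of day. The share called lower ran from 8.84 to 17.1%, 3.87 to 12.7% and 8.84 to 18.8% for the contrasts with Day 0. The members' adjusted counts ran from 0 to 1, 0 to 2, 0 to 1 and 0 to 4 for the same comparisons. Each was above 0 only without heifer 21, where 7.73% of all miRNAs passed for the effect of day. In that fit 13.3%, 1.66% and 12.2% were called lower for the contrasts. Ratios with an exact permutation p under 0.05 ran from 1 to 3 of 30 (3 without heifer 18 or 21, 2 without heifer 16 or 35).

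Fitted directions changed only for Day 16 against Day 8. miR-125a was at -0.065 with limma on either pseudocount or the repeated-measures test and at -0.058 with total counts, miR-99a-5p at 0.011 with no replicate block, and the summed miR-125 pair at 0.050. With a heifer left out, miR-99a-5p ran from -0.14 to 0.031, miR-99b from -0.088 to 0.048 and miR-100 from -0.14 to 0.0062. The cause of these changes was not tested. Of 1020 values for single members, ratios and correlations, 815 kept direction and side of the threshold. With 8 animals an exact test of sign changes cannot go below 0.0078. Each member had 297 counts or more in every library, and the part of depth in these results was not tested.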

Other observations

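let-7e, which lies between miR-99b and miR-125a in the deposited coordinates and did not pass the limit for testing, was at 2.81, 1.40 and 3.21 RPMM on Days 0, 8 and 16 in heifer 22, or 12, 6 and 15 reads. The other 7 heifers had between 18.9 and 81.1 RPMM in every library, or 60 to 369 reads. The mean over the 3 days differed 22.9-fold between the lowest and the highest heifer, against 1.40-fold for miR-99b and 1.94-fold for miR-125a on either side of it. In heifer 22 those neighbours averaged 737 RPMM for miR-99b and 414 RPMM for miR-125a over the 3 days.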
